A study of Homo sapiens with 5 samples.

Results

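The mRNAs of 39 genes of DNA replication and mitosis were followed in RNA recovered with PSF from LTAD prostate cancer cells. They were taken by gene symbol from a list, 39 of the 25702 genes in the deposited table, and divided by role into 19 genes of G1/S and S phase and 20 mitotic genes. PSF, which SFPQ encodes, binds RNA in the nucleus and belongs with NONO to the DBHS proteins, and by its title the series asks how a small molecule alters the RNAs that it binds. LTAD cells were grown without androgen (phenol-red-free medium with charcoal-stripped serum), and the labels do not give the parental line. RNA immunoprecipitation with sequencing (RIP-seq) was run on cells given DMSO vehicle (1 PSF-RIP library) or 5 µM of No.10-3, a compound known here only by that code (2 PSF-RIP libraries, replicates 1 and 2). The reference was 2 input libraries, RNA not selected with the antibody, of which 1 came from vehicle cells and 1 from No.10-3 cells. Their column names do not say which is which, so they were used together as 1 group and are called here the deeper and the shallower input. No control immunoprecipitation is among these 5 libraries, and the labels do not say whether the replicates came from separate cultures.

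Cells enter the cycle when cyclin D and cyclin E kinases inactivate the retinoblastoma protein and release E2F factors, which switch on genes for loading the MCM helicase, making nucleotides and copying DNA. Later the MYBL2 and FOXM1 programme switches on genes for cyclin B, the spindle, the kinetochore and the ubiquitin ligase that ends mitosis. Because most of these mRNAs are made mainly in cycling cells (CCND1 and CDK2 are also expressed outside the cycle), their sum in a bulk library follows both the share of cycling cells and the RNA per cell, and fewer cycling cells and less RNA per cell cannot be told apart here.

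The promoters of the S phase and mitotic genes were read for motifs. Genes of these roles are those that the programmes above switch on, so the motifs are no independent check of the division. RefSeq promoter windows of GRCh38.p14, each 300 bases around the transcription start, were matched by symbol for 29 of the 39 genes. An E2F-like motif (TTTCCCGC, TTTCGCGC, TTTGGCGC or TTTGCCGC on either strand) was sought in all windows of each gene, and a match in any of them counted. It was present in 11 of 14 S phase genes (78.6%), 1 of 15 mitotic genes (6.67%, CDK1) and 5.4% of 15842 protein-coding genes. The CHR motif bound by the MuvB complex is TTTGAA, read on either strand. It was present in 1 of 14 S phase genes (RRM1), 10 of 15 mitotic genes (66.7%) and 15.85% of protein-coding genes. CCAAT, on either strand and contained in neither of the other motifs, was in 10 of 14, 13 of 15 and 42.13% of these. A match is a string of letters, not a bound site. The promoters below are those of the S phase and mitotic genes that lay highest (MCM3, PLK1) and lowest (GINS1, CDK1) in PSF-RIP against input among the genes with a window, in capitals where an E2F-like or CHR match lies.
MCM3, chr6:52284693-52284992, minus strand, 2 E2F-like matches: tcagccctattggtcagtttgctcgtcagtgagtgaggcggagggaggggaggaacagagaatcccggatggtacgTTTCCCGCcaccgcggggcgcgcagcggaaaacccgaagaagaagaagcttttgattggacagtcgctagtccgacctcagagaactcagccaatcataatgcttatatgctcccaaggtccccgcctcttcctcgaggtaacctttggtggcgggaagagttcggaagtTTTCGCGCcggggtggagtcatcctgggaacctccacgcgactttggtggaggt
GINS1, chr20:25407423-25407722, plus strand, 1 E2F-like match: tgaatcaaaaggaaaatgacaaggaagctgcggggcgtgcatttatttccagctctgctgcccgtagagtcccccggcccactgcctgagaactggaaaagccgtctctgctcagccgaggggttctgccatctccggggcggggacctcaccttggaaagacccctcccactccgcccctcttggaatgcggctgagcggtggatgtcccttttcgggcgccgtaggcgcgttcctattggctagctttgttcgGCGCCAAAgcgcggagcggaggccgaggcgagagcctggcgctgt
PLK1, chr16:23678639-23678938, plus strand, 1 CHR match: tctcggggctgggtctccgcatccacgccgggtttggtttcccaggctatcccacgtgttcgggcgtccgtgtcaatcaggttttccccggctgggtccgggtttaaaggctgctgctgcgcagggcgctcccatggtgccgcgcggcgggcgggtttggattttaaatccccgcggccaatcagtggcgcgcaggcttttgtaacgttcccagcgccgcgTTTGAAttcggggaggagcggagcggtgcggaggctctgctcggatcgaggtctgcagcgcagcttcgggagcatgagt
CDK1, chr10:60778081-60778380, plus strand, the first of 2 windows, 1 CHR match upstream and 1 E2F-like match after the start: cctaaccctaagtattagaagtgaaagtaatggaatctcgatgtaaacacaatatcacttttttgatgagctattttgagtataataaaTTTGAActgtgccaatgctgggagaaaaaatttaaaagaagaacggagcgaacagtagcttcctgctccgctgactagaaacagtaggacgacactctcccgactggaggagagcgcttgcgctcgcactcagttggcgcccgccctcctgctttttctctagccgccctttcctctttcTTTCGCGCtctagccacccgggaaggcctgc
MCM3 and GINS1 both carry an E2F-like match, and PLK1 and CDK1 both carry a CHR match. Yet MCM3 and PLK1 were called higher and GINS1 and CDK1 lower in PSF-RIP relative to the bulk of genes. By library totals all 4 were above 0, but so was the median of all tested genes, at 2.10 log2 units.

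The libraries held 1519362 to 4010376 counts, and the median tested gene had 16 to 105 counts per library. Protein-coding genes took 16.4 and 15.9% of the inputs and 73.6 to 82.1% of the PSF-RIP libraries, while 5 small noncoding RNAs (RN7SK, RN7SL1, RPPH1, RMRP and RN7SL2) took 51.7 and 55.0% of the inputs and 2.63 to 7.81% of the PSF-RIP libraries. Levels are therefore given as CPM, a gene's counts scaled to a common library size, after edgeR's TMM scaling, which centres the libraries on the bulk of genes, and "higher" or "lower" in PSF-RIP means relative to that bulk. Scaled by library totals instead, the median of the 13321 tested genes moved from 0.08 to 2.10 log2 units in PSF-RIP against input and all 39 members were higher in PSF-RIP. Raw counts of S phase genes made up 0.0120% of the deeper input (95% Wilson interval 0.0110 to 0.0131%), 0.00762% of the shallower input (0.00671 to 0.00866%), 0.0800% of vehicle PSF-RIP (0.0764 to 0.0839%) and 0.0598% (0.0560 to 0.0638%) and 0.0610% (0.0584 to 0.0637%) of the No.10-3 replicates. Mitotic genes made up 0.0321% (0.0304 to 0.0339%), 0.0213% (0.0197 to 0.0230%), 0.142% (0.137 to 0.147%), 0.0924% (0.0877 to 0.0974%) and 0.138% (0.134 to 0.142%) of the same libraries. These intervals cover counting error only, since reads without molecular identifiers are not independent molecules. Markers of luminal prostate epithelium were detected for 10 of 10 genes (summed level 2170 and 2082 CPM in the inputs, 1555 to 1886 CPM in PSF-RIP). Of stromal markers 3 of 5 had counts, summing to 9.66 and 5.33 CPM in the inputs and 24.8 to 39.1 CPM in PSF-RIP, nearly all from COL1A1 (39.1 CPM with vehicle). Endothelial markers (2 of 3, mostly VWF) summed to 3.22 and 0.889 CPM in the inputs and 2.89 to 8.14 CPM in PSF-RIP, leukocyte markers (2 of 4, mostly CD68) to 2.57 and 2.67 CPM and 2.62 to 4.04 CPM, and basal markers (1 of 3, KRT14) to 0 except 0.370 and 0.578 CPM with No.10-3. KRT5 and TP63 (basal), DCN and LUM (stroma), CDH5 (endothelium) and PTPRC and CD3E (leukocytes) were at 0 in all 5 libraries, and the part of these markers in the results was not tested.

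**Figure D1:**
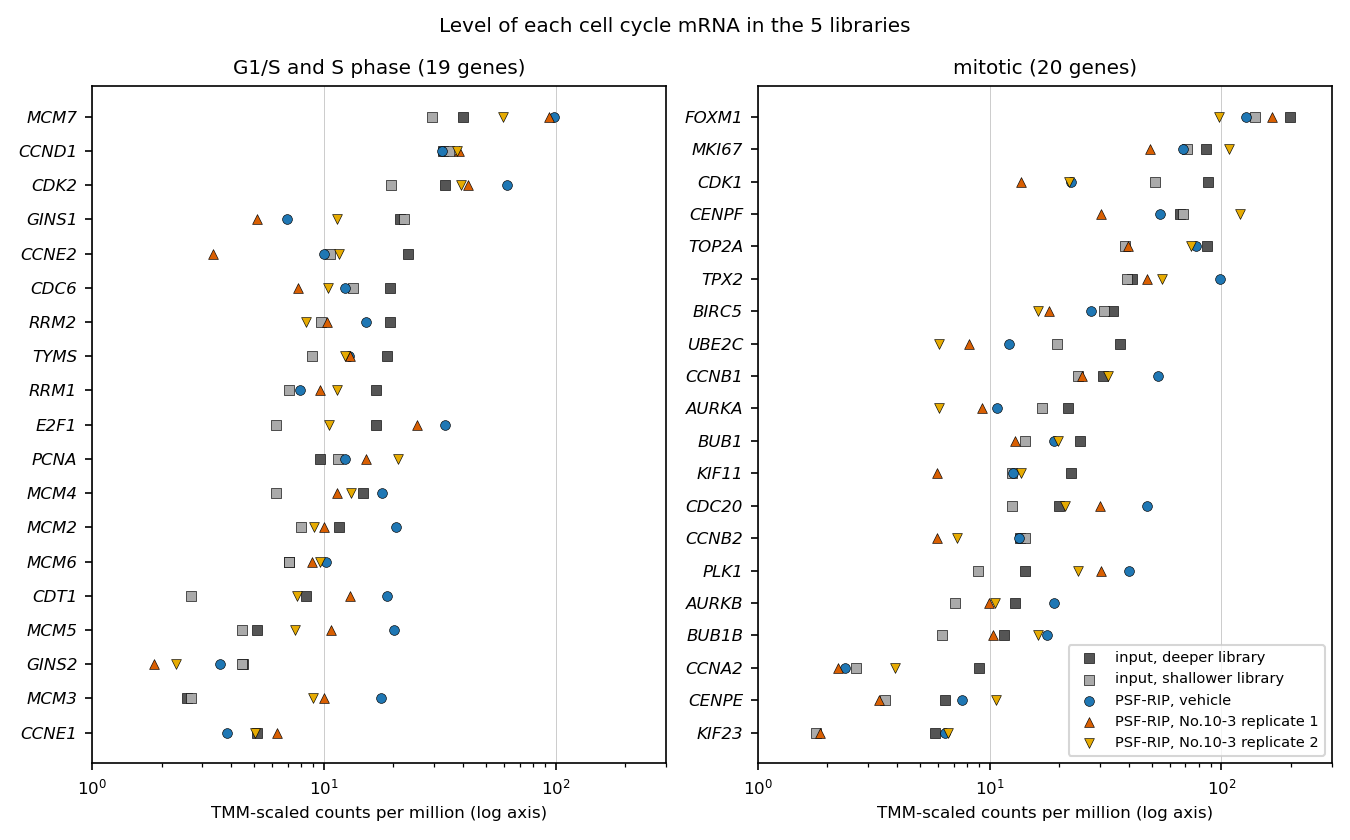
TMM-scaled CPM (log axis) of the 19 S phase genes (left) and 20 mitotic genes (right), ordered by their mean in the inputs, with 1 point per library. The PSF-RIP points of MCM3, MCM5, MCM7 and PLK1 lie right of both inputs and those of CDK1, UBE2C and GINS1 lie left of both by this scaling. By library totals all 39 genes are higher in PSF-RIP, as is the median of all tested genes, at 2.10 log2 units. CCNE1 had no count in the shallower input and that point is not drawn.

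In PSF-RIP against input, the genes of this set went both ways: 3 helicase subunits (MCM3, MCM5, MCM7) and the mitotic kinase PLK1 were higher, and CDK1, UBE2C and GINS1 were lower than the bulk of genes by TMM scaling. By edgeR's quasi-likelihood test (3 PSF-RIP libraries, vehicle and No.10-3 weighted equally, against 2 inputs, Benjamini-Hochberg threshold 0.05), 4 of 39 members were called higher (10.3%) and 3 lower (7.69%). By list, 3 of 19 S phase genes were higher (15.8%) and 1 lower (5.26%), and 1 of 20 mitotic genes was higher (5%) and 2 lower (10%). Of all tested genes, 12.0% were called higher and 13.6% lower, so the shares of the 39 members were not above the background. Only that of S phase genes called higher was, and no test compared the lists. For the 39 members the same held without a test: 9 (23.1%) lay above both inputs in all 3 PSF-RIP libraries against 30.1% of all genes, and 8 (20.5%) lay below both against 25.1%. The median log2 difference was 0.47 over S phase genes and -0.12 over mitotic genes, beside 0.08 over all tested genes. The S phase median was 0.096 without the shallower input, and the mitotic median was 0.14 without the deeper input and 0.21 without No.10-3 replicate 1. By library totals these medians were 2.64, 2.17 and 2.10, and 35 members and 84.3% of all genes (11223) were called higher, with 0 members and 54 genes called lower.

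The calls of this comparison rested on having 2 inputs. Without the deeper input 0 of the 7 calls remained, and without the shallower input, or with the inputs summed into 1 library, CDK1 and UBE2C remained. Each of these fits has the No.10-3 pair as its only estimate of spread. The log2 differences without the deeper and without the shallower input were 2.26 and 2.31 for MCM3, 1.59 and 1.38 for MCM5, 1.56 and 1.12 for MCM7 and 1.89 and 1.22 for PLK1. By the same TMM scaling they were -1.52 and -1.46 for GINS1, -1.36 and -2.12 for CDK1 and -1.08 and -1.99 for UBE2C, so all 7 kept their sign. Without No.10-3 replicate 1 and without replicate 2, the differences were 2.25 and 2.31 for MCM3, 1.34 and 1.58 for MCM5 and 1.13 and 1.44 for MCM7. These 2 fits take their spread from the inputs alone.

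The MCM2-7 helicase is loaded on origins and unwinds DNA. All 6 subunits had estimates above 0, and 3 passed the threshold; no test compared the subunits. MCM3 was at 2.58 CPM in the deeper and 2.67 CPM in the shallower input, at 17.6 CPM in vehicle PSF-RIP and at 9.99 and 8.95 CPM in No.10-3 replicates 1 and 2. All 3 PSF-RIP libraries lay above both inputs, with vehicle the highest. The log2 difference from input was 2.28 (SE 0.60, edgeR adjusted p = 0.00549). The inputs held only 4 and 3 MCM3 counts, and the ratio of summed counts was 4.51, with a counting interval of 2.14 to 11.4.

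MCM7 was at 39.9 and 29.3 CPM in the inputs, 98.2 CPM in vehicle PSF-RIP and 93.9 and 59.5 CPM with No.10-3. It lay above input in all 3 libraries by a log2 difference of 1.31 (SE 0.39, adjusted p = 0.0117). Its gene overlaps AP4M1 and hosts the microRNAs MIR25, MIR93 and MIR106B, and reads shared with AP4M1 cannot be separated in these counts. MCM5 was at 5.15 and 4.45 CPM in the inputs, 20.0 CPM in vehicle PSF-RIP and 10.7 and 7.51 CPM with No.10-3, a log2 difference of 1.46 (SE 0.54, adjusted p = 0.0403). This was the highest adjusted p of the 7 calls, and DESeq2 did not make it. The other 3 subunits did not pass: MCM2 had a log2 difference of 0.49 (SE 0.47), MCM4 of 0.46 (SE 0.47) and MCM6 of 0.46 (SE 0.51). MCM6 lay above both inputs in all 3 PSF-RIP libraries by a small margin (7.08 and 7.11 CPM against 8.88 to 10.2 CPM), and MCM2 and MCM4 overlapped the inputs.

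The factors that load and complete the helicase had estimates of both signs by TMM scaling and of 1 sign by library totals. CDT1, which brings MCM2-7 to origins, was at 8.37 and 2.67 CPM in the inputs, 18.8 CPM in vehicle PSF-RIP and 12.9 and 7.65 CPM with No.10-3, and did not pass over the 3 libraries (log2 difference 1.24, SE 0.54, adjusted p = 0.0822). CDC6, its partner in loading, was at 19.3 and 13.3 CPM in the inputs and at 12.4, 7.77 and 10.4 CPM in PSF-RIP, below both inputs in each library (log2 difference -0.62, SE 0.44, adjusted p = 0.308). GINS1, a subunit of the GINS complex that turns MCM2-7 into the moving helicase, was at 21.2 and 22.2 CPM in the inputs, 6.91 CPM in vehicle PSF-RIP and 5.18 and 11.4 CPM with No.10-3. GINS1 fell by 1.48 on the log2 scale by TMM scaling (SE 0.45, edgeR adjusted p = 0.0144). By library totals it stood at 0.87 (edgeR adjusted p = 0.105), below the median of 2.10 over all tested genes. GINS2, of the same complex, also lay below both inputs but was sparse (1.85 to 3.58 CPM in PSF-RIP, adjusted p = 0.458) and overlaps GSE1.

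For DNA synthesis, PCNA, the sliding clamp of the replicative polymerases, was at 9.66 and 11.6 CPM in the inputs and at 12.4, 15.2 and 20.9 CPM in vehicle and No.10-3 replicates 1 and 2, above both inputs in each library (log2 difference 0.51, SE 0.46, adjusted p = 0.433). The enzymes of nucleotide supply overlapped the inputs. The ribonucleotide reductase subunits had log2 differences of -0.42 (RRM1, SE 0.48) and -0.32 (RRM2, SE 0.45), and thymidylate synthase (TYMS, which overlaps ENOSF1) one of -0.14 (SE 0.45). None of the 4 passed.

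Among G1/S regulators, CDK2, the kinase of cyclins E and A, was at 33.5 and 19.6 CPM in the inputs and at 62.0, 41.8 and 39.1 CPM in vehicle and the No.10-3 replicates, above both inputs but not past the threshold (log2 difference 0.90, SE 0.39, adjusted p = 0.0805). E2F1, the activator of the S phase programme, was at 16.7 and 6.22 CPM in the inputs and at 33.4, 25.1 and 10.5 CPM in PSF-RIP (log2 difference 1.02, SE 0.48, adjusted p = 0.110). Its inputs were 1.34 log2 units apart and the last PSF-RIP library lay between them. CCND1, the cyclin D of the G1 kinases, was even across the libraries, at 32.8 and 34.7 CPM in the inputs and 32.4 to 38.5 CPM in PSF-RIP (log2 difference 0.06, SE 0.37). The 2 cyclin E genes had log2 differences of opposite sign, 0.67 for CCNE1 (SE 0.73) and -0.94 for CCNE2 (SE 0.49, overlapping INTS8 and NDUFAF6), with neither past the threshold. Without the shallower input both were below 0 by TMM scaling (-0.15 and -1.37). CCNE1 had 8 counts in the deeper input and 0 in the shallower, which allows up to 2.67 CPM.

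**Figure D2:**
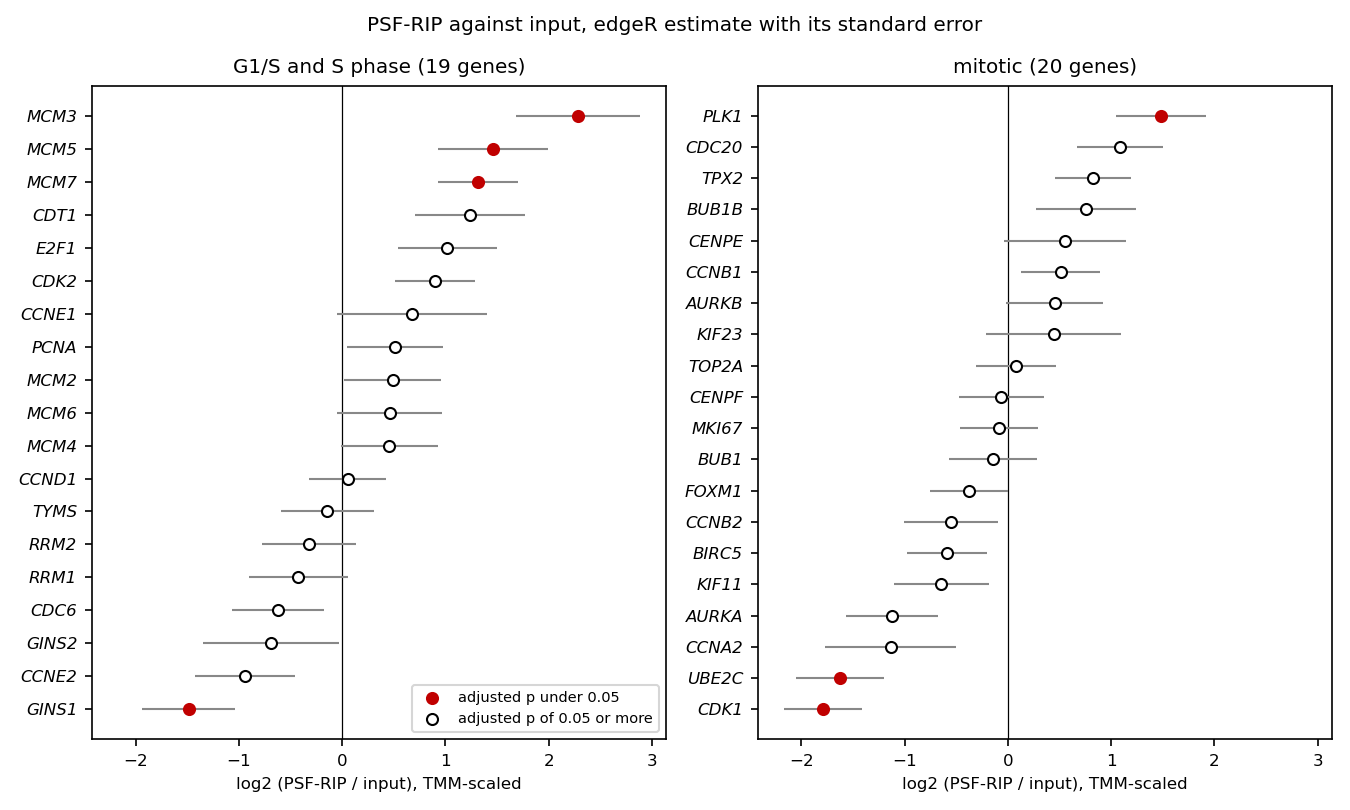
Log2 difference of PSF-RIP from input (edgeR estimate, bars are 1 SE) for the 19 S phase genes (left) and 20 mitotic genes (right), filled where the adjusted p was under 0.05. MCM3 (2.28) and CDK1 (-1.79) stand at the ends by TMM scaling. By library totals all 39 values are above 0, and the median of all tested genes is 2.10.

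CDK1, the kinase that drives entry into mitosis, had the lowest adjusted p of the set. It was at 87.6 CPM in the deeper and 51.6 CPM in the shallower input, at 22.4 CPM in vehicle PSF-RIP and at 13.7 and 21.9 CPM in No.10-3 replicates 1 and 2. Every PSF-RIP library was below both inputs, although the inputs themselves were 0.76 log2 units apart. CDK1 fell by 1.79 on the log2 scale by TMM scaling (SE 0.38, edgeR adjusted p = 7.38e-04). By library totals CDK1 stood at 0.56 (edgeR adjusted p = 0.206), below the median of 2.10 over all tested genes. Its cyclins did not pass the threshold, and no test compared them with CDK1. CCNB1 was at 30.9 and 24.0 CPM in the inputs and at 53.4, 25.1 and 32.5 CPM in PSF-RIP (log2 difference 0.51, SE 0.38), overlapping the inputs. CCNB2 was at 13.5 and 14.2 CPM and at 13.3, 5.92 and 7.22 CPM, below both inputs in each library by TMM scaling (-0.55, SE 0.46) and at 1.80 by library totals. CCNA2, the cyclin of S phase and early mitosis, was at 9.01 and 2.67 CPM in the inputs and 2.22 to 3.90 CPM in PSF-RIP (-1.13, SE 0.63; 0.054 without the deeper input), between and below the inputs, and overlaps EXOSC9.

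The partners of the anaphase-promoting complex had estimates of opposite sign by TMM scaling and of the same sign by library totals. UBE2C, its ubiquitin-conjugating enzyme, was at 36.7 and 19.6 CPM in the inputs, 12.2 CPM in vehicle PSF-RIP and 8.14 and 6.06 CPM with No.10-3. UBE2C fell by 1.63 on the log2 scale by TMM scaling (SE 0.43, edgeR adjusted p = 0.00555). By library totals UBE2C stood at 0.71 (edgeR adjusted p = 0.153), below the median of 2.10 over all tested genes. CDC20, its activator and the target of the spindle checkpoint, was at 20.0 and 12.4 CPM in the inputs, 47.9 CPM in vehicle PSF-RIP and 30.0 and 21.2 CPM with No.10-3, above both inputs in each library but just short of the threshold (log2 difference 1.08, SE 0.42, adjusted p = 0.0513).

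Of the mitotic kinases, PLK1, which acts at centrosomes, kinetochores and the midbody, was at 14.2 and 8.89 CPM in the inputs, 40.0 CPM in vehicle PSF-RIP and 30.3 and 24.0 CPM with No.10-3. All 3 PSF-RIP libraries were above both inputs, and the log2 difference was 1.49 (SE 0.44, adjusted p = 0.0118). PLK1 overlaps ERN2 in the annotation. AURKA, the spindle-pole kinase, was at 21.9 and 16.9 CPM in the inputs and at 10.7, 9.25 and 6.06 CPM in PSF-RIP, below both inputs in each library. It was short of the threshold by TMM scaling (log2 difference -1.12, SE 0.44, edgeR adjusted p = 0.0560). AURKA was called lower with at least 5 CPM and with protein-coding genes only, but not with no filter or by DESeq2. By library totals it stood at 1.22 (edgeR adjusted p = 0.0217), below the median of 2.10 over all tested genes. TPX2, the activator that brings AURKA to spindle microtubules, was at 41.2 and 39.1 CPM in the inputs and at 98.2, 47.7 and 55.3 CPM in PSF-RIP, above both inputs in each library (log2 difference 0.82, SE 0.37, adjusted p = 0.0931).

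The chromosomal passenger genes AURKB (kinase) and BIRC5 (survivin) had log2 differences of 0.45 (SE 0.47) and -0.59 (SE 0.39), and BIRC5 lay below both inputs in each library. The checkpoint kinases BUB1 (-0.14, SE 0.43) and BUB1B (0.76, SE 0.48, overlapping the BUB1B-PAK6 readthrough gene) overlapped the inputs, as did the kinetochore genes CENPE (0.55, SE 0.59) and CENPF (-0.06, SE 0.41). The spindle motors KIF11 (-0.64, SE 0.46) and KIF23 (0.45, SE 0.65) did too. The proliferation marker MKI67 (-0.09, SE 0.38), the topoisomerase TOP2A (0.08, SE 0.39) and the transcription factor FOXM1 (-0.38, SE 0.38) differed from input by less than or about 1 SE, and none of these 11 genes passed. FOXM1, which overlaps ITFG2 and RHNO1, had the highest level per kilobase of gene length of the 39, at 46.4 CPM per kb in input and 35.8 in PSF-RIP. In input it was followed by CDK1 (21.0 CPM per kb) and UBE2C (17.6), and in PSF-RIP by MCM7 (25.4), CDK2 (22.3) and CDC20 (21.9). CENPE was lowest in both (0.580 and 0.850 CPM per kb).

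Each treatment was also set against the same 2 inputs, so these comparisons share their reference. With vehicle, 7 members (17.9%) were called higher (MCM3, MCM5, MCM7, CDT1, PLK1, CDC20 and TPX2), beside 10.0% of all genes, and 1 was called lower (CDK1, 2.56%), beside 10.4%. With No.10-3, 0 members were called higher, beside 4.98% of genes, and 2 were called lower (CDK1 and UBE2C, 5.13%), beside 6.50%. At an unadjusted p under 0.05 there were 10 of 39 members with No.10-3 and 12 with vehicle. Of all 13321 tested genes, 3839 and 4647 were at that level, so the members' shares were not above the background. For the 7 genes called with vehicle the log2 differences with vehicle and with No.10-3 were 2.74 and 1.83 for MCM3, 2.04 and 0.88 for MCM5, 1.49 and 1.13 for MCM7, 1.69 and 0.79 for CDT1, 1.77 and 1.20 for PLK1, 1.54 and 0.63 for CDC20 and 1.29 and 0.36 for TPX2. Being called with vehicle and not with No.10-3 is no test of a difference between them. Without either input, 0 of the 8 vehicle calls remained, and DESeq2 kept 4 (MCM3, MCM7, PLK1 and CDK1). By library totals CDK1 stood at 0.70 with vehicle and 0.42 with No.10-3, and UBE2C at 0.31 with No.10-3. That scaling called 73.0% of all genes higher with vehicle and 86.6% with No.10-3.

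The test of the compound itself compared No.10-3 PSF-RIP (2 libraries) with vehicle PSF-RIP (1 library). No member was called by edgeR's quasi-likelihood test, as for all genes (0%), and the lowest adjusted p among members was 0.783. Of the 13321 tested genes 846 had an unadjusted p under 0.05, and of the 39 members 3 did (MCM2, MCM5 and TPX2). DESeq2 called 0 genes and had 273 at that level, with 0 members among them. In sign, both No.10-3 libraries lay below vehicle for 24 of 39 members (61.5%) against 32.4% of all genes, and above it for 4 (10.3%: PCNA, RRM1, CCND1 and CCNE1) against 33.3%. Both libraries share the single vehicle library, so this count has 1 control value behind it. The lean was not particular to the members: 57.1% of further replication genes and 52.7% of further mitotic genes also lay below vehicle in both libraries. The median log2 difference was -0.52 over S phase genes, -0.50 over mitotic genes and -0.0035 over all genes, and by library totals -0.54 and -0.51.

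The lowest estimates came from both lists. MCM5 had a log2 difference of -1.16 (SE 0.53), and MCM2 went from 20.5 CPM with vehicle to 9.99 and 9.10 CPM with No.10-3 (-1.11, SE 0.52). CCNB2 came next (13.3 CPM with vehicle and 5.92 and 7.22 CPM with No.10-3), followed by E2F1 (-0.94), TPX2 (-0.93), CDC20 (-0.92), CDT1 (-0.91), MCM3 (-0.90), AURKB (-0.89) and CCNB1 (-0.88), with SE from 0.44 to 0.55. Both No.10-3 libraries were below vehicle for each of these 10 genes. The highest estimates were those of PCNA (0.56, SE 0.54), CCNE1 (0.55, SE 0.74) and CENPF (0.48, SE 0.53). E2F1 depended on the replicate: its log2 difference from vehicle was -0.40 in replicate 1 and -1.61 in replicate 2. Without replicate 1, E2F1 was called lower (log2 difference -1.67, adjusted p = 0.00684) in a fit that called 866 genes and took its spread from the inputs alone. Without replicate 2, 26 genes and no member were called.

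The 2 inputs differed over these genes by a median about as large as that between vehicle and No.10-3 PSF-RIP. The deeper input was higher for 14 of 19 S phase genes and 18 of 20 mitotic genes, 82.1% of members, against 51.6% of all tested genes. The median log2 difference of deeper from shallower input was 0.51 over S phase genes and 0.71 over mitotic genes, beside 0.02 over all genes. The summed level of S phase genes was 310 and 209 CPM in the inputs and 416, 336 and 297 CPM in vehicle and the No.10-3 replicates, and that of mitotic genes was 829 and 583 CPM and 739, 519 and 672 CPM. Whether the input difference runs with treatment cannot be read from the column names, so the change in PSF-RIP was not set against a change in the cells' RNA, and its part in the result was not tested. Of the 10 members whose inputs lay less than 0.2 log2 units apart, a limit chosen after the values were seen, 7 had an estimate below 0 between No.10-3 and vehicle (from -0.14 for MCM6 to -1.16 for MCM5) and 3 one above 0 (GINS1, CCND1 and CENPF). Of the other 29 members, 23 were below 0 and 6 above. By the difference of mean log2 CPM, 31 of the 39 members and 6687 of all 13321 tested genes were below 0. All these estimates share the single vehicle library, so this split cannot tell a change in PSF-RIP from one in the cells' RNA.

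**Figure D3:**
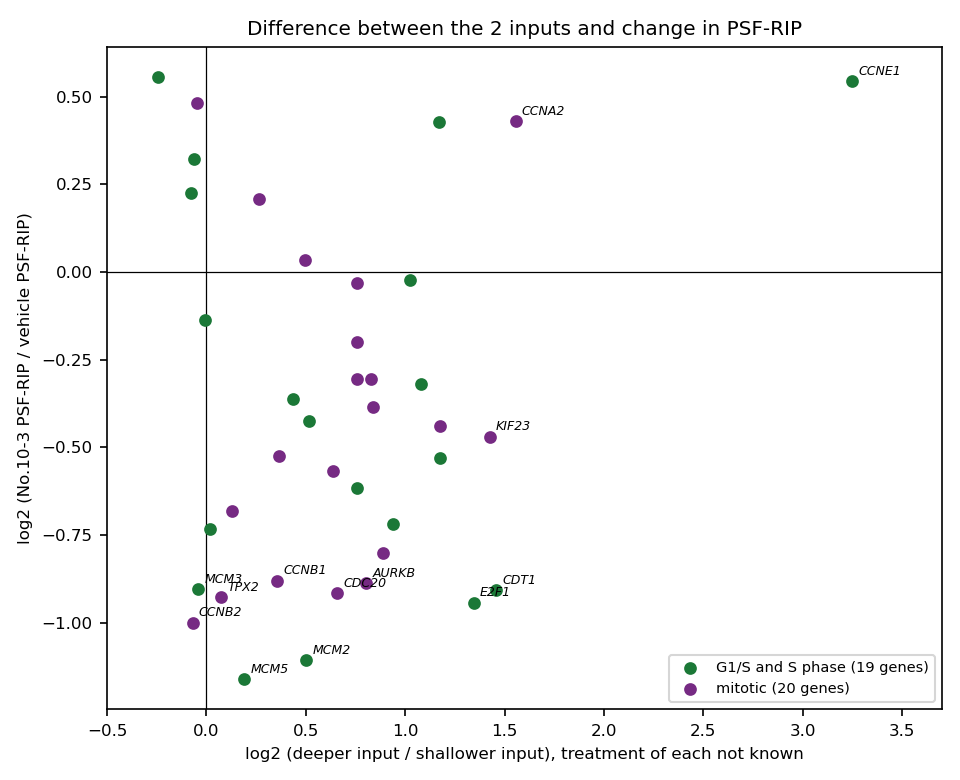
For each of the 39 genes (green, S phase; purple, mitotic), the log2 difference of the deeper from the shallower input (horizontal) and of No.10-3 from vehicle PSF-RIP (vertical, edgeR estimate). Of the points, 32 lie right of 0, and MCM5, MCM2 and CCNB2 lie lowest; CCNE1 lies far right because the shallower input had no count of it.

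The median absolute log2 difference between the 2 No.10-3 replicates was 0.45 over the members and 0.47 over all tested genes. The replicates differed by more than 1 log2 unit (prior count of 2) for 8 members. Replicate 2 was the higher for 7 of them, CENPF (1.97), CCNE2 (1.64), KIF23 (1.56), CENPE (1.52), KIF11 (1.13), MKI67 (1.13) and GINS1 (1.05), and replicate 1 for E2F1 (-1.21). The 3 longest members are among them. CENPF (10296 bases in the deposited length column), which acts at the kinetochore, was at 30.3 CPM in replicate 1 and 120 CPM in replicate 2, beside 54.6 CPM with vehicle. MKI67 (12497 bases) was at 49.2 and 108 CPM, beside 68.6 CPM. CENPE (8612 bases), the kinetochore motor, was at 3.33 and 10.7 CPM, beside 7.63 CPM. CCNE2 (2727 bases), of S phase and of ordinary length, was at 3.33 and 11.7 CPM. For the 3 longest the vehicle library lay between the replicates. Across the 39 genes the log2 difference of replicate 2 from replicate 1 had a Pearson's r of 0.51 with log2 length, and across all 13321 genes 0.37. These describe the same 2 libraries, and genes are not replicates. Over mitotic genes the median log2 difference from vehicle was -0.71 in replicate 1 and -0.25 in replicate 2, and over S phase genes -0.52 and -0.43. Against input, the mitotic median was -0.60 in replicate 1 and 0.19 in replicate 2. With a smooth length trend removed, the medians against vehicle were -0.51 over S phase genes and -0.52 over mitotic genes.

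**Figure D4:**
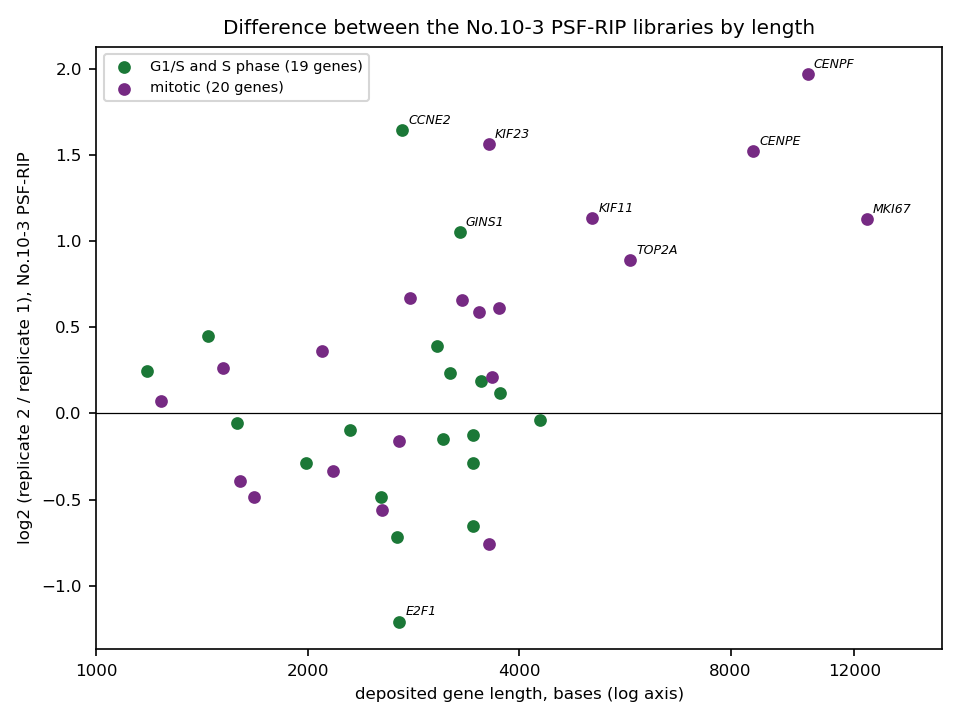
Log2 difference of No.10-3 PSF-RIP replicate 2 from replicate 1 (TMM-scaled, prior count of 2) against deposited gene length (log axis) for the 39 genes. CENPF, CENPE and MKI67, the longest, lie above 1, as do the shorter CCNE2, KIF23, KIF11 and GINS1, and E2F1 is the lowest.

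Other genes of the pathway were counted from 3 lists. Of 49 replication genes, 3 were called higher (6.12%) and 3 lower (6.12%) in PSF-RIP against input. Of 55 further mitotic genes, 6 were higher (10.9%) and 7 lower (12.7%), and of 25 tested regulators, 1 was higher (4%) and 5 lower (20%). Of all tested genes 12.0% were called higher and 13.6% lower, so these shares, apart from that of regulators called lower, were below the background. Their medians were 0.19, -0.20 and -0.43 log2 units, beside 0.08 for all genes. POLE, the catalytic subunit of the leading-strand polymerase, had the lowest adjusted p among the genes called higher (log2 difference 2.12, SE 0.43, adjusted p = 5.16e-04), followed by TIMELESS of the fork protection complex (1.56) and the kinesin KIF2C (1.73). Among those called lower by TMM scaling, the phosphatase CDKN3 stood at -2.39, the checkpoint protein MAD2L1 at -3.01 and the kinase PBK at -1.93. By library totals these 3 stood at -0.04, -0.68 and 0.42, where the median of all tested genes was 2.10. POLE, TIMELESS and KIF2C were also the 3 lowest in adjusted p among genes higher with vehicle. MAD2L1 (-3.95, SE 1.08), RB1 (-2.48, SE 0.70) and CDKN3 (-2.10, SE 0.61) were the 3 among genes lower with vehicle by TMM scaling. By library totals these stood at -1.65, -0.14 and 0.24. MAD2L1 was sparse, with 11 and 10 counts in the inputs, 2 in vehicle PSF-RIP and 1 and 19 in No.10-3 replicates 1 and 2. With No.10-3 the genes called higher were POLE (1.69) and TIMELESS (1.35), and CDKN3 (-2.67), CENPA (-1.78) and RPA3 (-1.70) led those lower by TMM scaling, at -0.31, 0.58 and 0.67 by library totals.

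No gene of these lists was called between No.10-3 and vehicle PSF-RIP. Both No.10-3 libraries lay below vehicle for 28 of 49 replication genes (57.1%), 29 of 55 further mitotic genes (52.7%) and 8 of 25 regulators (32%). Of all tested genes 32.4% did, so the regulators were at the background. Both No.10-3 libraries lay above vehicle for 5 (10.2%), 2 (3.64%) and 9 (36%), beside 33.3% of all tested genes. The median log2 differences were -0.35, -0.42 and 0.02, beside -0.0035 over all genes. CDKN1A, the p21 inhibitor of cyclin-dependent kinases, was at 54.1 and 70.2 CPM in the inputs, 39.1 CPM with vehicle and 84.3 and 71.3 CPM with No.10-3 (log2 difference between the treatments 0.99, SE 0.48, adjusted p = 0.783). RB1, the retinoblastoma protein, was at 17.4 and 20.4 CPM in the inputs, 3.34 CPM with vehicle and 4.44 and 13.4 CPM with No.10-3. MYBL2, of the mitotic activator, was at 50.9 and 31.1 CPM in the inputs, 102 CPM with vehicle and 61.4 and 34.8 CPM with No.10-3 (-1.09, SE 0.46, adjusted p = 0.783). For CDKN1A both No.10-3 libraries lay above vehicle, as they did for RB1, and for MYBL2 both lay below.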

How the data were processed

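RIP-seq of 5 libraries was analysed: 2 inputs, 1 vehicle PSF-RIP and 2 No.10-3 PSF-RIP. Per the file headers, the authors deposited 1 table of read counts and gene lengths, with FPKM columns (5) that were not used. The counts were taken as raw, being whole numbers. The submitters' processing notes name TopHat2 2.1.0, Bowtie2 2.2.6, Bowtie and hg19, with no roles. How reads were counted, with which strand setting, annotation and treatment of multiply mapped reads, is not given in the sources used here. Per the labels' protocols, the library kit was stranded. The No.10-3 PSF-RIP columns are named for the compound only and were assigned by elimination.

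Genes whose mean over the 5 libraries was at least 1 CPM (13321 of 25702, all 39 members among them) were tested with edgeR 4.0.16 (R 4.3.3): TMM scaling, 3 groups in 1 fit with 2 residual degrees of freedom, glmQLFTest, Benjamini-Hochberg over all genes tested, threshold 0.05. SE is the log2 difference over the square root of the F statistic. Its spread is mostly shared across genes (38.5 prior beside 2 residual degrees of freedom), so it is not a gene's own replicate spread. Medians used log2 CPM (prior count 2), where changes of low genes are understated. Since nothing says that libraries came from separate cultures, p-values measure only the spread between these samples, which may be technical, and the vehicle library is assumed to vary like the other groups. Genes without a symbol held 0.110 to 0.504% of counts. Biotypes and overlaps were taken from RefSeq's genes on GRCh38.p14, a later build (23696 genes matched). The fit was tested on simulated data. DESeq2 1.42.0, other scalings, filters, references and left-out libraries were tried.

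The members and lists were chosen with earlier results of these data known. Every member was named. Of the other pathway genes, the 3 lowest adjusted p in each direction per comparison were named, with CDKN1A, RB1 and MYBL2.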

Additional observations from a re-analysis of the deposited data

How the results depend on the processing

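Counting error limits the least abundant genes (MCM3 rests on 4 and 3 input counts), and each spread rests on 2 libraries. No paired analysis of input and PSF-RIP was possible because the column names do not say which input came from vehicle cells. Over the single-gene results, 461 kept their direction and side of the threshold under an alternative, 49 lost the threshold, 33 gained it and 38 turned sign, 21 by library totals and 17 by other alternatives, none of the 17 past the threshold on either side. Scaling by library totals and the fit on nuclear protein-coding genes were chosen after seeing the data.

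By library totals, genes called higher and lower numbered 11223 and 54 for PSF-RIP against input, 9725 and 50 for vehicle against input and 11533 and 53 for No.10-3 against input, and members 35 and 0, 35 and 0, and 32 and 0. The S phase and mitotic medians became 2.64 and 2.17, 2.54 and 2.21, and 2.45 and 2.09. This scaling turned the sign, in PSF-RIP against input, of CDC6 (1.72), GINS1 (0.87), GINS2 (1.64), RRM1 (1.92), RRM2 (2.02), TYMS (2.20), CCNE2 (1.41), CCNA2 (1.20), CCNB2 (1.80), CDK1 (0.56), MKI67 (2.28), BUB1 (2.21), AURKA (1.22), CENPF (2.32), KIF11 (1.71), BIRC5 (1.75), FOXM1 (1.95) and UBE2C (0.71), of CDK1 with vehicle (0.70) and of CDK1 (0.42) and UBE2C (0.31) with No.10-3.

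The other sign turns, all in PSF-RIP against input, were of CCND1 with at least 5 CPM (-0.011) and with protein-coding genes only (-0.0055), of TOP2A with the inputs summed (-0.032), and of 11 genes with 1 library left out. These 11 ranged from -0.87 to 0.36 for RRM1, -0.69 to 0.28 for RRM2, -0.54 to 0.52 for TYMS, -0.15 to 7.12 for CCNE1 (without the deeper input its reference held no count, so this is no bound), -1.69 to 0.054 for CCNA2, -0.45 to 0.13 for MKI67, -0.38 to 0.80 for TOP2A, -0.46 to 0.32 for BUB1, -0.049 to 1.07 for CENPE, -0.74 to 0.27 for CENPF and -0.24 to 1.60 for KIF23.

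Leaving out 1 library at a time, genes called higher and lower ranged from 66 to 2679 and from 550 to 2887 for PSF-RIP against input, from 48 to 2475 and from 284 to 2520 for vehicle, from 12 to 2034 and from 222 to 2039 for No.10-3, and from 0 to 501 and from 0 to 365 between the treatments. Members called ranged from 0 to 9 and 0 to 7, 0 to 10 and 0 to 3, 0 to 3 and 0 to 6, and, lower between the treatments, 0 to 1. The mitotic median of No.10-3 against input ranged from -0.60 to 0.18, and that of all PSF-RIP against input from -0.34 to 0.21. The S phase medians ranged from 0.096 to 0.50 over all PSF-RIP, from 0.27 to 0.62 with vehicle and from -0.032 (without the shallower input) to 0.53 with No.10-3. With the inputs summed, genes called were 130 and 801, 112 and 472, and 15 and 314, with members called higher 0 over all PSF-RIP, and 1 higher and 0 lower with vehicle. DESeq2 called 985 genes higher over all PSF-RIP, 669 higher with vehicle (members, 3), and 307 higher and 576 lower with No.10-3. With the TMM of genes of at least 500 bases and with no filter, 2 members each were called lower with vehicle. Of all tested genes, 1431 of 13321 and 1400 of 17015 were. With at least 5 CPM and with protein-coding genes only, 2 members each were called lower with vehicle. Of all tested genes, 1414 of 10923 and 1485 of 11806 were. With No.10-3 and no filter, 2 members were called higher, beside 868 of 17015 tested genes. With at least 5 CPM and with protein-coding genes only, 4 members each were called lower with No.10-3. Of all tested genes, 885 of 10923 and 939 of 11806 were. Whether the members exceeded these shares was not tested. With no filter, 9 genes were called lower between the treatments. Where a fit has fewer libraries or genes its construction differs, and otherwise the cause was not tested.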

Other observations

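The input difference was read in the other pathway lists too. The deeper input was higher for 44 of 55 further mitotic genes (80.0%), for 28 of 49 replication genes (57.1%) and for 10 of 25 regulators (40.0%), beside 51.6% of all tested genes. The median log2 difference of deeper from shallower input was 0.45 over the further mitotic genes, 0.09 over the replication genes and -0.07 over the regulators. The members chosen for S phase, at 14 of 19 (73.7%) and a median of 0.51, lay above the wider replication list. Which input carried No.10-3 is not known.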
